A study of Mus musculus with 6 samples.

Results

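Genes of cytotoxic lymphocytes were examined in RNA from spleen B cell preparations of mice. The 10 genes are Gzma, Gzmb, Prf1, Nkg7, Ccl5, Ncr1, Klrd1, Klrk1, Klre1 and Eomes. They were taken by gene name from the deposited expression table, in which each stands in 1 row, and they are 10 of the 35275 genes listed there. The values are FPKM, the number of sequenced fragments scaled to gene length and library depth, so that levels can be compared between genes. All mice were C57BL/6, were 6 to 8 weeks old, and had received sheep red blood cells (SRBC), an antigen that drives germinal centre responses. Spleens were taken on day 8 and B cells were isolated with a magnetic pan-B kit. The labels give 3 libraries from wild-type mice (WT 1 to WT 3) and 3 from mice with an altered CD40 ligand (CD40LΔ5 1 to CD40LΔ5 3). They do not say which part of the ligand is changed, whether a library came from its own animal, or whether animals were pooled. All p-values therefore measure only the spread between these 6 libraries.

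Natural killer cells and cytotoxic T cells kill target cells by releasing granules. Perforin (Prf1) makes pores in the target membrane, and granzymes such as Gzma and Gzmb enter and cleave proteins inside. Killer cell lectin-like receptors, the Klr genes, and Ncr1 decide whether a natural killer cell attacks, and the T-box factor Eomes drives the lineage. The spleen holds many natural killer cells and CD8 T cells, whereas resting B cells are not known for this programme.

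The deposited sources did not place the libraries in the same groups. The authors' deposited table of group means has a column MUT that equals the mean of WT 1, WT 2 and CD40LΔ5 2, and a column WT that equals the mean of WT 3, CD40LΔ5 1 and CD40LΔ5 3. The largest difference from those means was 3.33e-08 FPKM, and the next best set of libraries was off by 1.34e+03 FPKM. Libraries are called by their labels throughout, and the comparisons of the 10 genes are given by the labels and by these sets, which use the same 6 libraries. The sets are called the MUT-averaged and the WT-averaged libraries.

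Reads on genes ranged from 24320080 to 27866611 per library. The defining B cell markers were high in every library, with 8 of 8 found and a summed level of 4598 to 5384 FPKM. By the sets, the log2 difference was above 0 in 9 of 9 tested rows of this list (Cr2 has more than 1 row), against 62% of all tested genes. The median over these rows was 0.12, and 3 of them (Blk, Ms4a1 and Cd79b) were higher without overlap, against 12.1% of all tested genes. By the labels 8 were above 0 and 1 below. None was called in either. Cd40lg, the gene of the altered ligand, lay between 0.118 and 0.533 FPKM, or 4 to 17 reads. It was 0.428 to 0.533 FPKM in the MUT-averaged libraries and 0.118 to 0.203 FPKM in the WT-averaged ones. The labels do not say how the change should alter this RNA, so its level does not check them.

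RefSeq (GRCm38.p6) gave a promoter for 8 of the 10 genes, all but Ccl5 and Klrd1. The 250 bases before the RefSeq start of 5 genes follow, because they carry the granule proteins and a receptor on which the comparisons below turn. They lie on chr13:113100982-113101231 (minus strand, Gzma), chr14:56262335-56262584 (minus, Gzmb), chr10:61297586-61297835 (plus, Prf1), chr7:43436888-43437137 (plus, Nkg7) and chr6:129623865-129624114 (minus, Klrk1). Each is written 5′ to 3′ on the gene's strand, and capitals mark matches on either strand to TGTGGT, the core bound by Runx factors, or to AGGTGT, a short form of the site bound by T-box factors such as Eomes.
Gzma: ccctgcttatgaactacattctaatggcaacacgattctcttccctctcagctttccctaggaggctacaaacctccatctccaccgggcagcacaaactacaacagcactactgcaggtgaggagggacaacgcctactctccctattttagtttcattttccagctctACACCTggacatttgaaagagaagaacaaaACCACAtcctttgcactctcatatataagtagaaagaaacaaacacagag
Gzmb: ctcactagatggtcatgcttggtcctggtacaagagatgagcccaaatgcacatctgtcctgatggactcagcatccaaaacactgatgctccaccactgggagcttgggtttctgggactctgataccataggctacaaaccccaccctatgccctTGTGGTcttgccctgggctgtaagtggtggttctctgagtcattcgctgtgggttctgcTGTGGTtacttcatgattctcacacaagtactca
Prf1: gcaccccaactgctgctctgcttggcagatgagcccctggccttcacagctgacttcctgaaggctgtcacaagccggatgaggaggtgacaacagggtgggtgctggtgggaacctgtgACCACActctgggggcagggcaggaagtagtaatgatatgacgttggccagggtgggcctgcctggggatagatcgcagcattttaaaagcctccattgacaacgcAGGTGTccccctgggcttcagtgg
Nkg7: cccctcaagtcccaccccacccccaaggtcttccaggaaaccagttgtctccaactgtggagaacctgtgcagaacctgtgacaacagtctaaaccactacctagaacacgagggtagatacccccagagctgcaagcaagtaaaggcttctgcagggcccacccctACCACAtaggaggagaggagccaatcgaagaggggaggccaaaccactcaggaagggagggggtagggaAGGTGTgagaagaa
Klrk1: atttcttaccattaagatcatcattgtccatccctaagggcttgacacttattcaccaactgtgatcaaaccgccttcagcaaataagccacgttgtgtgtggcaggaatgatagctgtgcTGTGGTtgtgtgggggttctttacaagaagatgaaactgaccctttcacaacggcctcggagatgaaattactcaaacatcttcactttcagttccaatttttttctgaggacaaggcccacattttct
The Runx core was found in 7 of the 8 promoters (all but Eomes), against 14% of 32851 RefSeq promoters of that length. Gzma had it on the opposite strand with its first base 50 bases before the start, and Gzmb had it at 93 and 34 bases before the start. The short T-box site was found in 3 of 8, those of Gzma, Nkg7 and Prf1, against 11.8% of all promoters. Nkg7 alone among the 8 also held the longer T-box form AGGTGTGA, which contains the short one (1.12% of all promoters), and a STAT site TTCNNNGAA (7.02%). The Ets core AGGAAG was found in Nkg7 and Prf1 (29.5% of all promoters). These are matches of letters and say nothing of binding. In the deposited coordinates the gene starts 65 bases before the RefSeq start for Nkg7 and 320 before it for Klre1. The whole Klre1 stretch and the end of the Nkg7 stretch, with its T-box match, therefore lie inside the gene as deposited.

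The 10 genes spanned a wide range of levels, and the same few were the most abundant in every library. The chemokine gene Ccl5 had the highest mean over the 6 libraries, 25.4 FPKM, then Gzma with 15.3 and Nkg7 with 8.54 FPKM. Each of these was above the next gene in the order in 6 of 6 libraries. Klrd1 (4.23 FPKM), Ncr1 (4.10 FPKM) and Prf1 (3.68 FPKM) did not keep an order. Klrd1 was above Ncr1 in 2 of 6 libraries, and Ncr1 was above Prf1 in 4 of 6. Gzmb followed with 1.68 FPKM, below Prf1 in 6 of 6 libraries, then Klre1 (1.43 FPKM) and Klrk1 (1.41 FPKM), of which Klre1 was higher in 2 of 6. Eomes had the lowest mean, 0.685 FPKM, and was below every other member in 5 of 6 libraries, the exception being Klre1 in WT 3. It was the only member below the mean of 1 FPKM required for testing, so that 9 of 10 were tested.

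**Figure D1:**
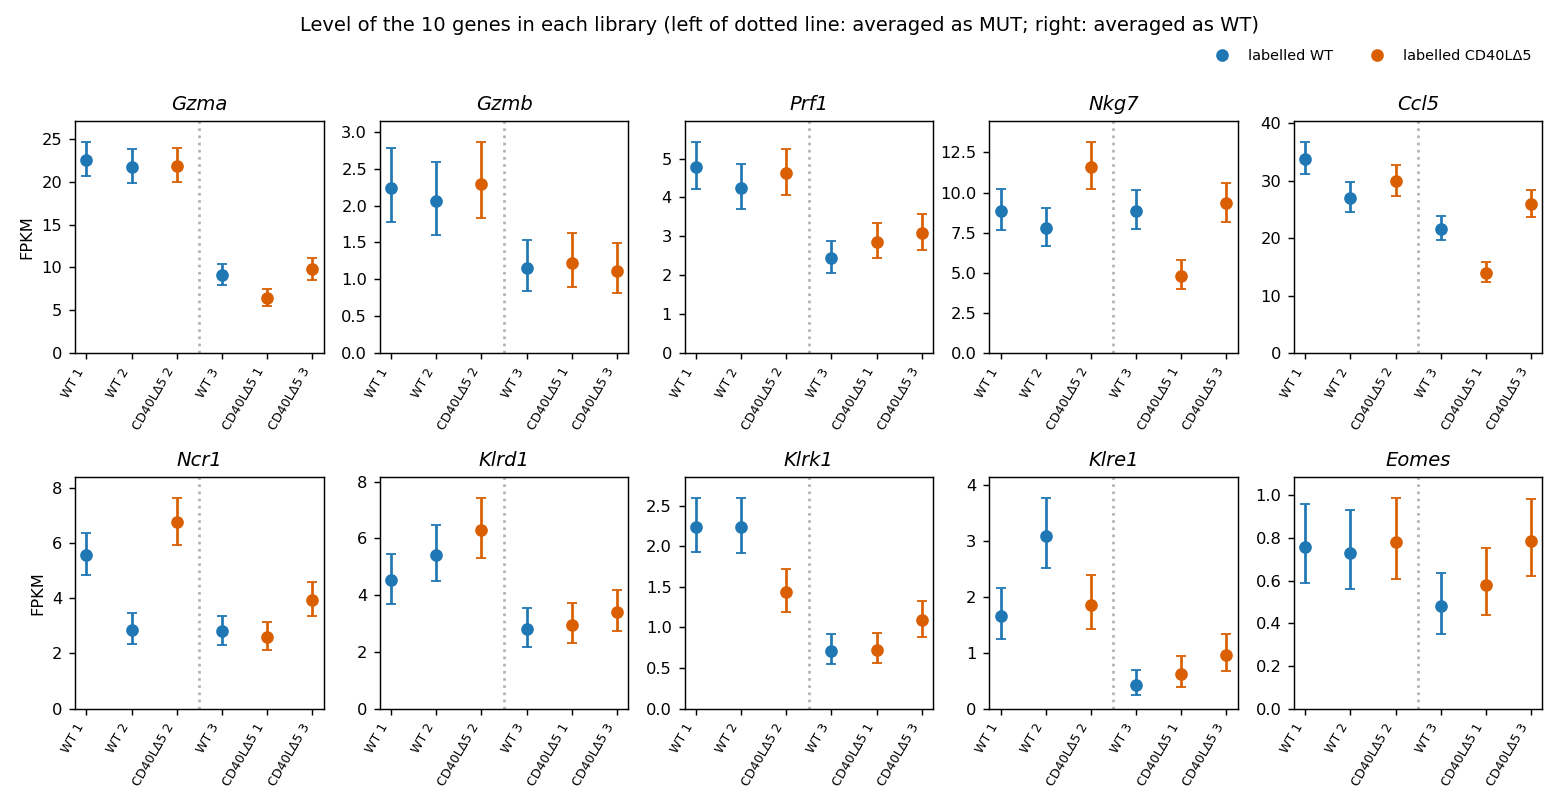
FPKM of each of the 10 genes in the 6 libraries, named by their labels, with libraries averaged as MUT in the deposited table of means to the left of the dotted line. Points are single libraries and error bars are 95% Poisson intervals, which cover counting error only. Gzma lies between 21.8 and 22.6 in the 3 libraries at the left and between 6.41 and 9.77 in the 3 at the right.

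The level of these genes together was uneven over the libraries. Their summed FPKM was 87.0, 77.2 and 50.5 in WT 1 to WT 3, and 36.8, 87.4 and 59.4 in CD40LΔ5 1 to CD40LΔ5 3. WT 1, WT 2 and CD40LΔ5 2 were high, and these are the 3 MUT-averaged libraries, while both label groups hold high and low libraries. In such bulk RNA, fewer cells of a type and less RNA per cell cannot be told apart.

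Among the granule genes, Gzma, a serine protease of the granules (ENSMUSG00000023132, chr13:113093825-113100979, minus strand), differed most between libraries. It measured 22.6, 21.8 and 9.16 FPKM in WT 1 to WT 3 and 6.41, 21.9 and 9.77 FPKM in CD40LΔ5 1 to CD40LΔ5 3, from 153 to 506 reads. The 3 high values were nearly equal and the 3 low ones lay apart from them. By the labels, the groups overlapped, at 17.8 ± 7.52 FPKM in WT and 12.7 ± 8.13 in CD40LΔ5 (SD, n = 3). The log2 difference, CD40LΔ5 minus WT, was -0.53 ± 0.48 (SE), with a limma adjusted p of 0.999993. By the sets, the MUT-averaged libraries had 22.1 ± 0.434 FPKM and the WT-averaged ones 8.45 ± 1.79 (SD, n = 3), a ratio of means of 2.61. That log2 difference was 1.31 ± 0.14 on the log2(FPKM + 1) scale and the limma adjusted p was 0.0677, which did not pass the threshold of 0.05. The p ranked 6th of 11252 genes. It rests in part on the SD of the MUT-averaged libraries, which was below the 1.00 FPKM from counting alone. Without CD40LΔ5 1 the adjusted p was 0.00979 at a log2 difference of 1.14, and with robust variance estimates it was 0.0312, over a range of 0.00979 to 0.481 in all alternatives.

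Gzmb, the granzyme that starts apoptosis through caspases (ENSMUSG00000015437, chr14:56258856-56262260, minus strand), was far less abundant. It measured 2.24, 2.06 and 1.15 FPKM in WT 1 to WT 3 and 1.22, 2.30 and 1.11 FPKM in CD40LΔ5 1 to CD40LΔ5 3, from 44 to 81 reads. The high libraries were again WT 1, WT 2 and CD40LΔ5 2. The log2 difference was -0.15 ± 0.24 by the labels and 0.57 ± 0.11 by the sets, where the limma adjusted p was 0.343.

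Prf1, the pore-forming protein (ENSMUSG00000037202, chr10:61297836-61304263, plus strand), had the same high and low libraries. Its values were 4.79, 4.24 and 2.44 FPKM in WT 1 to WT 3 and 2.87, 4.63 and 3.09 FPKM in CD40LΔ5 1 to CD40LΔ5 3. The log2 difference was -0.08 ± 0.24 by the labels and 0.55 ± 0.10 by the sets, where the limma adjusted p was 0.343. The ratio of Gzmb to Prf1 stayed between 0.360 and 0.497 over the 6 libraries.

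Nkg7, a membrane protein of the granules needed for their release (ENSMUSG00000004612, chr7:43437073-43438246, plus strand), did not share the pattern. It measured 8.88, 7.77 and 8.88 FPKM in WT 1 to WT 3 and 4.82, 11.6 and 9.32 FPKM in CD40LΔ5 1 to CD40LΔ5 3. Its highest library was CD40LΔ5 2 and its lowest CD40LΔ5 1, and the groups overlapped by both groupings. The log2 difference was -0.06 ± 0.27 by the labels and 0.29 ± 0.24 by the sets, with a limma adjusted p of 0.586 in the latter.

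Ccl5, which draws T cells and other leukocytes (ENSMUSG00000035042, chr11:83525778-83530518, minus strand), measured 33.8, 27.0 and 21.6 FPKM in WT 1 to WT 3 and 13.9, 29.9 and 25.9 FPKM in CD40LΔ5 1 to CD40LΔ5 3. CD40LΔ5 1 was the low library, and CD40LΔ5 3 was only slightly below WT 2. The log2 difference was -0.28 ± 0.29 by the labels and 0.57 ± 0.21 by the sets, with a limma adjusted p of 0.356 in the latter.

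Of the receptors, Ncr1 (NKp46), an activating receptor that marks natural killer cells (ENSMUSG00000062524, chr7:4337724-4345164, plus strand), had its highest values in CD40LΔ5 2 and WT 1. It measured 5.58, 2.86 and 2.81 FPKM in WT 1 to WT 3 and 2.61, 6.76 and 3.96 FPKM in CD40LΔ5 1 to CD40LΔ5 3. WT 2, high for the granzymes, was low here, and the groups overlapped by both groupings. The log2 difference was 0.17 ± 0.33 by the labels and 0.51 ± 0.27 by the sets, where the limma adjusted p was 0.436.

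Klrd1 (CD94), which pairs with Klrc proteins (ENSMUSG00000030165, chr6:129591782-129598775, plus strand), measured 4.52, 5.41 and 2.80 FPKM in WT 1 to WT 3 and 2.96, 6.31 and 3.40 FPKM in CD40LΔ5 1 to CD40LΔ5 3. The 3 MUT-averaged libraries were above the other 3. The log2 difference was -0.03 ± 0.29 by the labels and 0.66 ± 0.13 by the sets, with a limma adjusted p of 0.343 in the latter.

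Klrk1 (NKG2D), the activating receptor for stress ligands (ENSMUSG00000030149, chr6:129610323-129623864, minus strand), measured 2.24, 2.24 and 0.714 FPKM in WT 1 to WT 3 and 0.725, 1.44 and 1.09 FPKM in CD40LΔ5 1 to CD40LΔ5 3. CD40LΔ5 2 lay between the high WT 1 and WT 2 and the low libraries. Klre1, which forms receptor pairs with Klri proteins (ENSMUSG00000050241, chr6:129577893-129585824, plus strand), measured 1.65, 3.09 and 0.417 FPKM in WT 1 to WT 3 and 0.621, 1.85 and 0.964 FPKM in CD40LΔ5 1 to CD40LΔ5 3. It rested on 15 to 98 reads and had the widest range of the 10 genes, 7.41-fold between WT 2 and WT 3. By the labels, the log2 difference was -0.35 ± 0.29 for Klrk1 and -0.25 ± 0.41 for Klre1. By the sets it was 0.68 ± 0.17 and 0.93 ± 0.21, both with a limma adjusted p of 0.343.

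Eomes (ENSMUSG00000032446, chr9:118478212-118486132, plus strand) measured 0.759, 0.728 and 0.479 FPKM in WT 1 to WT 3 and 0.579, 0.780 and 0.786 FPKM in CD40LΔ5 1 to CD40LΔ5 3, from 47 to 78 reads. WT 3 and CD40LΔ5 1 were the low libraries, and CD40LΔ5 3 was the highest. Group means were 0.655 ± 0.154 in WT and 0.715 ± 0.118 in CD40LΔ5 (SD, n = 3), with p = 0.5 in an exact permutation test on both sides. By the sets they were 0.756 ± 0.0265 and 0.615 ± 0.157 (exact permutation p = 0.4, where 0.1 is the smallest possible). The kit does not mark strand, and the antisense gene Gm33460 overlaps Eomes in GENCODE, so reads of the pair cannot be told apart.

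Across the members, no gene passed the test in either comparison. By the labels, limma called 0 of 11252 genes at an adjusted p of 0.05 (percent called 0), with 139 at an unadjusted p under 0.05, and voom on the recovered reads called 0. The label groups overlapped for 10 of 10 members, while they did not overlap for 4.29% of tested genes, 2.98% higher and 1.32% lower in CD40LΔ5. None of the 9 tested members was at an unadjusted p under 0.05 in limma, against 1.24% of genes in either direction. That count was 1 without WT 3 (Klrk1, limma adjusted p of 0.999979) and 1 without CD40LΔ5 2 (Gzma, 0.999967). By the sets, limma called 3 genes (0.0267%), none of them a member. For 7 of 10 members, all but Nkg7, Ncr1 and Eomes, every MUT-averaged library was above every WT-averaged one, against 12.1% of tested genes. No member was below in this way, against 4.79%, and 16.9% of genes did not overlap in either direction. The same 7 members were at an unadjusted p under 0.05 in limma, against 9.39% of genes at that p and higher in the MUT-averaged libraries. The median log2 difference of the 9 tested members was -0.15 by the labels, with 1 above 0 and 8 below, where the median of all tested genes was 0.01 and 55.5% were above 0. By the sets it was 0.57 with 9 of 9 above 0, where the median of all tested genes was 0.05 and 62% were above 0. Without WT 3 and CD40LΔ5 2, both groupings make the same split of the other 4 libraries under opposite names. There the median by the labels was -0.54, and 7 of 10 members were lower in both CD40LΔ5 libraries than in both WT ones, against 17.2% of tested genes. In that fit the limma adjusted p was 0.481 for Gzma and 0.999819 for every other tested member. The 4 libraries are part of the sets, by which 7 members already did not overlap. A count of at least 7 was thus fixed in advance and is no separate result by the labels.

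**Figure D2:**
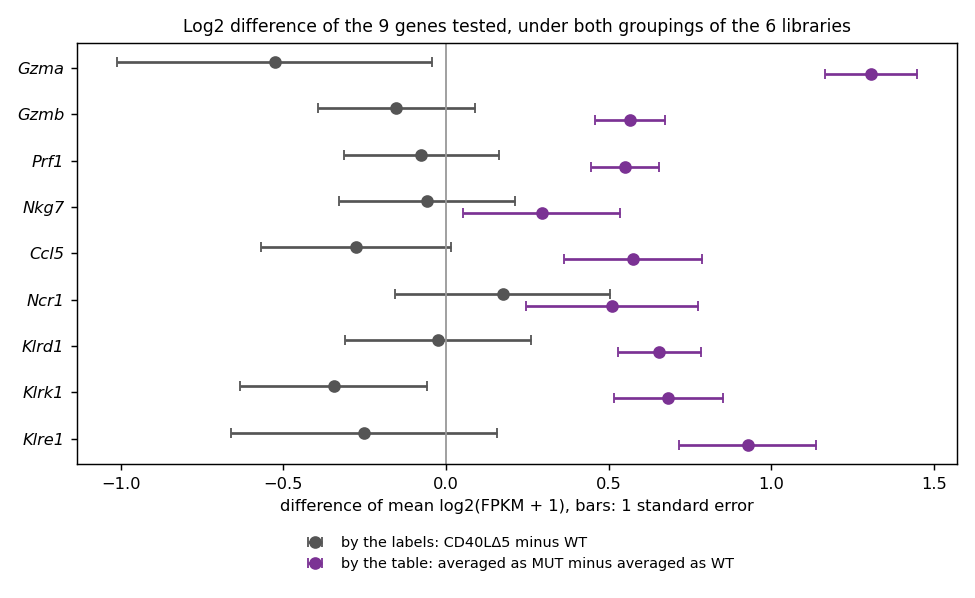
Log2 difference, on the log2(FPKM + 1) scale, of the 9 tested genes by the labels (CD40LΔ5 minus WT) and by the sets of the deposited table of means (MUT-averaged minus WT-averaged), with bars of 1 SE from limma. Gzma lies at -0.53 by the labels and at 1.31 by the sets, and no value passed an adjusted p of 0.05.

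The make-up of the summed level also varied. Gzma took 25.9%, 28.2% and 18.1% of the sum in WT 1 to WT 3 and 17.4%, 25.02% and 16.4% in CD40LΔ5 1 to CD40LΔ5 3. Its share was higher in each MUT-averaged library than in any other. Ccl5 took 34.2% to 43.7%. The ratio of Gzma to Ccl5 was 0.668 to 0.806 in the MUT-averaged libraries and 0.376 to 0.460 in the WT-averaged ones. That of Gzma to Nkg7 was 1.89 to 2.80 against 1.03 to 1.33. Its ratios to Gzmb and to Prf1 also lay apart, and that to Klrd1 did so narrowly, at 3.47 to 5.00 against 2.16 to 3.27. The ratio of Gzma to Ncr1 overlapped, at 3.24 to 7.61 against 2.46 to 3.26. The ratio of Ncr1 to Klre1 was less even, from 0.925 in WT 2 to 6.74 in WT 3.

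**Figure D3:**
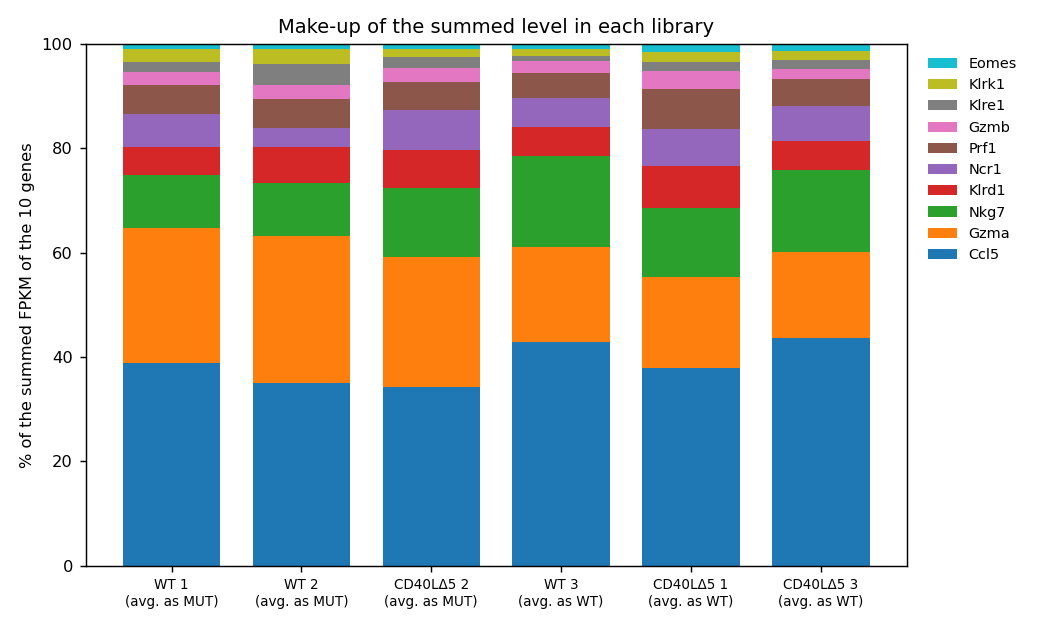
Share, in percent, of each of the 10 genes in their summed FPKM, 1 stacked bar per library from 0 to 100. Gzma takes 25.02% to 28.2% in the MUT-averaged libraries and 16.4% to 18.1% in the others.

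Within both label groups the SD of 10 of 10 members exceeded the SD from counting alone. Within the MUT-averaged libraries it exceeded it for 6 members, and not for Gzma, Gzmb, Prf1 and Eomes. Within the WT-averaged libraries it did so for 8, and not for Gzmb and Klrd1.

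Other genes of the pathway were counted from lists chosen for these roles. Of 19 granule and killing genes, 10 were tested, of which 3 had a log2 difference above 0 and 7 below by the labels, and 6 above and 4 below by the sets. None was called in either. The most abundant, the granule proteoglycan Srgn, at 212 to 247 FPKM, the membrane protein Lamp1 (82.7 to 104 FPKM), the granzyme-activating protease Ctsc (77.5 to 103 FPKM) and the release factor Unc13d (24.9 to 31.8 FPKM), had log2 differences of 0.06, 0.06, 0.11 and 0.11 by the sets and of -0.07, 0.00, -0.04 and 0.03 by the labels. Gzmd, Gzme, Gzmf, Gzmg and Gzmn, near Gzmb on chromosome 14, had 0 reads in every library, which allows up to 0.112 to 0.136 FPKM at 3 reads. Gzmk, a granzyme gene near Gzma, had 0 to 6 reads.

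Of 31 natural killer receptors and adaptors found, 10 were tested, with 3 above 0 and 7 below by the labels and 10 of 10 above 0 by the sets, none called. The signalling adaptor Tyrobp (DAP12) measured 39.6 to 70.1 FPKM and had a log2 difference of 0.52 ± 0.13 by the sets and -0.11 ± 0.24 by the labels. Hcst (DAP10), the adaptor of Klrk1, was 31.7 ± 0.178 FPKM in the MUT-averaged libraries and 22.9 ± 4.37 in the others (SD, n = 3). Its log2 difference was 0.47 ± 0.13 by the sets and -0.04 ± 0.22 by the labels. It had 240 to 352 reads, so the SD of 0.178 is below what counting alone would give. The SE by the sets rests in part on that SD. Il2rb, an interleukin 15 receptor chain, had 0.39 ± 0.09 by the sets and -0.04 ± 0.18 by the labels. Each of these 3 had a limma adjusted p of 0.343 by the sets and 0.999993 by the labels. Fcer1g, an adaptor shared with myeloid cells, had 0.47 ± 0.26 by the sets, with an adjusted p of 0.454 in limma, and -0.28 ± 0.30 by the labels.

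Of 9 tested transcription factors of cytotoxic cells, 5 were above 0 and 4 below by the labels, and 4 above and 5 below by the sets, none called. Ets1, which B cells also express, was the most abundant (193 to 254 FPKM). Runx3 (16.5 to 23.6 FPKM), Bhlhe40 (11.2 to 13.8 FPKM) and Id2 (7.67 to 11.7 FPKM) followed. Their log2 differences were 0.05, 0.05 and -0.32 by the labels and 0.09, -0.09 and 0.12 by the sets. Id2 was lower without overlap in CD40LΔ5, as were 1.32% of all tested genes, with a limma adjusted p of 0.999993. Tbx21, the T-box factor related to Eomes, measured 2.52 to 3.72 FPKM and its log2 difference was -0.01 ± 0.13 by the sets and 0.01 ± 0.13 by the labels. Of the cytokine and chemokine genes, 4 were tested, with 2 above and 2 below by the labels and 3 above and 1 below by the sets, none called. Tnf, the most abundant of them (2.91 to 7.85 FPKM), had -0.33 ± 0.25 by the labels and 0.35 ± 0.24 by the sets. Xcl1, a chemokine gene with 9 to 44 reads, had 0.77 ± 0.23 by the labels and 0.18 ± 0.36 by the sets. Its limma adjusted p was 0.999993 by the labels and 0.843 by the sets. Of the 3 tested receptor ligands, 3 were above 0 by the labels, and 1 was above and 2 below by the sets. H2-T23 (Qa-1), seen by Klrd1 with Klrc1, measured 107, 23.3 and 187 FPKM in WT 1 to WT 3 and 180, 123 and 108 in CD40LΔ5 1 to CD40LΔ5 3. It belongs to a family of near-identical genes, so its reads are uncertain. Of 7 tested genes of the interleukin 15 pathway, which sustains natural killer cells, 5 were above 0 and 2 below by either grouping.

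Klre1, Klrd1 and Klrk1 lie next to each other on chromosome 6, with 5958 bases between the first pair and 11548 between the second, among 30 Klr genes of that chromosome. The Klra genes of this group were looked at after their values had been seen. They encode Ly49 receptors, except Klra11-ps, Klra13-ps and Klra14-ps, which are annotated as pseudogenes and are counted with them here. Reads on the 14 Klra genes numbered 231, 441 and 42 in WT 1 to WT 3 and 71, 113 and 181 in CD40LΔ5 1 to CD40LΔ5 3. Of these 14 genes, 12 were highest in WT 2, but only 7 of the 14 reached 20 reads in any library, and for the others a few reads set the order. Of those 7, which include Klra13-ps, 6 were highest in WT 2. Klra8 measured 1.33, 2.72 and 0.0308 FPKM in WT 1 to WT 3 and 0.187, 0.103 and 0.822 FPKM in CD40LΔ5 1 to CD40LΔ5 3. CD40LΔ5 2, with the highest Klrd1, was thus low for Klra8. Klra4 differed from this, at 1.64, 2.34 and 0.378 FPKM in WT 1 to WT 3 and 0.562, 1.26 and 0.980 FPKM in CD40LΔ5 1 to CD40LΔ5 3. Klra4 and Klra13-ps were higher in each MUT-averaged library than in any WT-averaged one, as were 12.1% of all tested genes. The other Klra genes were not. The Klra genes are closely related copies, and how reads that match more than 1 of them were counted is not given. Its part in these values was not tested.

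**Figure D4:**
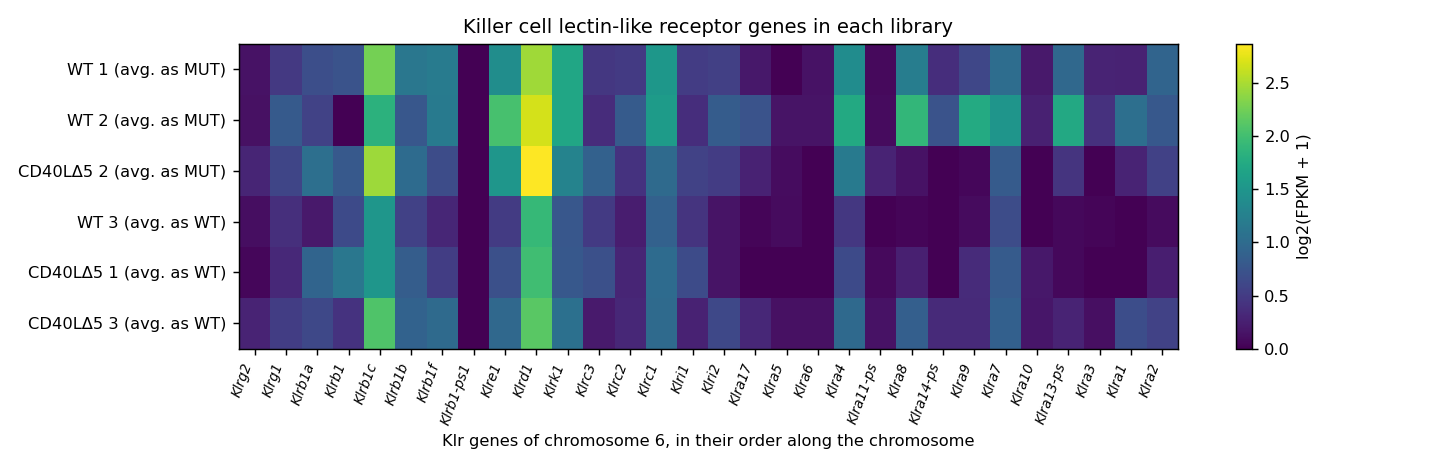
Heat map of log2(FPKM + 1) of the 30 Klr genes of chromosome 6 (columns, in chromosomal order) in the 6 libraries (rows). Of the 7 Klra genes with at least 20 reads in a library, 6 are highest in WT 2, while Klrd1 is highest in CD40LΔ5 2.

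Markers of other cells were measured beside these genes. The 21 T cell markers were all found, 17 were tested and none was at 0 in all libraries, with a summed level of 214 to 283 FPKM in WT and 249 to 262 in CD40LΔ5. By the sets the sum was 232 to 283 against 214 to 262 FPKM. Cd2 alone, at 117 to 183 FPKM, made up most of this sum. Which cells gave the Cd2 RNA was not tested, so the sum is not a measure of T cells. Of the 17, 14 were above 0 by the sets, where 62% of all tested genes were, and 7 were higher without overlap, against 12.1% of all. By the labels 3 were above 0 and 14 below, and none was called in either. The sum of Cd3d, Cd3e and Cd3g was 13.2, 14.6 and 9.24 FPKM in WT 1 to WT 3 and 10.97, 13.7 and 9.76 in CD40LΔ5 1 to CD40LΔ5 3, so it too was higher in each MUT-averaged library. The summed level of the 10 cytotoxic genes over that of these 3 genes ranged from 3.35 in CD40LΔ5 1 to 6.57 in WT 1. The macrophage list, with 9 of 9 tested above 0 by the sets and 9 of 9 below by the labels, summed to 169 to 349 FPKM against 123 to 196, and the 10 neutrophil genes, 9 of them below 0 by the sets and 2 below by the labels, to 86.8 to 119 against 59.1 to 626. By the sets, 5 of 5 tested erythroid genes, 2 of 3 of dendritic cells and the 1 tested platelet gene were above 0, and 7 of 7 plasma cell, 3 of 3 basophil and mast cell and 3 of 3 gamma delta T cell genes were below. By the labels, 5 of 5 erythroid, 3 of 3 dendritic cell, 7 of 7 plasma cell genes and the platelet gene were below 0, as was 1 of 3 in each of the basophil and mast cell and gamma delta T cell lists. No gene of these lists was called in either comparison. The part of these cells in the results above was not tested.

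Finally, genes outside the 10 were ranked by the correlation of their log2(FPKM + 1) with the mean standardised level of the 9 tested members. These are descriptions over 6 libraries that share depth and preparation. The highest were Ap4s1 (r = 0.996), Bcap29 (0.993), Ifi204 (0.992), Aamdc, Ddrgk1, Arvcf, AW112010, Ly6a (0.983), Nme4 and Rgs18 (0.978). Of 11243 genes, 180 had an r above 0.9. Ly6a (Sca-1), the most abundant of them, measured 329, 322 and 181 FPKM in WT 1 to WT 3 and 187, 378 and 233 FPKM in CD40LΔ5 1 to CD40LΔ5 3. Within the members, the r with the mean of the others ran from 0.582 for Nkg7 to 0.976 for Gzma.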

How the data were processed

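RNA of 6 libraries was prepared with a TruSeq kit from 1 µg of total RNA, per the labels' protocols. CASAVA 1.8.2, STAR, DESeq2 and the build mm9 appear in the submitters' processing notes, where no role is stated. Which tool counted reads, and on which annotation, is not given in the sources used here. FPKM per gene and library were deposited by the authors. Coordinates of genes follow the files. For 5 of the 10 genes start and end equal GENCODE's on GRCm38, although the notes name mm9. Whole reads were recovered from the FPKM for 100% of values (tolerance 0.01), for read numbers and counting intervals.

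limma 3.58.1 in R 4.3.3 (lmFit, eBayes with trend) was run on log2(FPKM + 1) for the 11252 genes whose mean reached 1 FPKM, two-sided, with Benjamini-Hochberg adjustment over all of them and a threshold of 0.05. The scale understates changes of low genes. The procedure was tested on simulated data. The genes, lists (granule and killing, receptors, factors, cytokines, ligands, interleukin 15, T, gamma delta T, B, plasma, neutrophil, macrophage, dendritic, basophil, platelet and erythroid) and tests were chosen with earlier results of these data known. A further list is not reported here. All 10 members were named, up to 4 genes of other lists by mean FPKM, and the 10 genes most correlated with the members, without predicted genes and immunoglobulin segments. Further genes, among them Tbx21, Gzmk, Blk and the Cd3 genes, were named outside this rule, after their values had been seen. Alternatives were other pseudocounts, filters, scaling, variance settings, voom, a replicate block and leaving out libraries. The count of members that do not overlap was added after seeing the data.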

Additional observations from a re-analysis of the deposited data

How the results depend on the processing

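By the labels, limma called 0 genes under every alternative but 1: without WT 3 and CD40LΔ5 2 together it called 2. There Ncr1 was at -0.25. By the sets, the 3 called genes became 5 with a pseudocount of 0.1, 1 without a filter, 6 with robust variance, 1 with voom, and 1 to 16 when single libraries were left out (16 without CD40LΔ5 1, 13 without WT 2, 1 without CD40LΔ5 2). The members' median by the sets moved to 0.80 with a pseudocount of 0.1 and 0.81 with voom, and stayed between 0.56 and 0.72 when single libraries were left out. The count of members that do not overlap by the sets was 7 to 9 when single libraries were left out. Leaving out a library cannot undo a separation, so this count could not fall below 7 and is no check of it. The share of all tested genes rose in the same way, from 12.1% to between 13.7% (without WT 3) and 27.3% (without CD40LΔ5 1).

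By the labels, the sign of several members changed with 1 library left out. Their log2 differences ran from -0.30 to 0.073 (Prf1), -0.30 to 0.15 (Klrd1), -0.66 to 0.11 (Klre1), -0.29 to 0.26 (Nkg7), -0.48 to 0.041 (Ccl5) and -0.12 to 0.43 (Ncr1). Gzma and Klrk1 kept their sign, at -0.98 (without CD40LΔ5 2) to -0.17 (without CD40LΔ5 1) and -0.65 (without WT 3) to -0.19 (without WT 1), as did Gzmb, at -0.36 to -0.03. Without WT 3 and CD40LΔ5 2 together they were -0.47 for Prf1, -0.51 for Klrd1, -0.88 for Klre1, -0.64 for Ccl5, -1.37 for Gzma and -0.77 for Klrk1. The Eomes difference in mean FPKM ran from -0.0282 to 0.128. The members' median by the labels ran from -0.36 (without CD40LΔ5 2) to 0.03 (without CD40LΔ5 1). The cause was not tested.

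Deviations of same-numbered libraries correlated at -0.38, 0.06 and 0.38, so they showed no common sign of a pairing by replicate number. With 3 libraries per group, such values cannot exclude a pairing. With the replicate block, limma called 0 genes by the labels and the members' median stayed at -0.15. The sets of the table of means share no numbers that pair them, so no block was fitted there. Klre1, Gzmb and Eomes rest on under 100 reads in every library, which limits their precision.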
